A study of Homo sapiens with 16 samples.

Results

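The last 2 Mb of the human chromosomes were examined in 8 lists of ChIP-seq peaks, which mark where a protein or a histone mark was enriched on DNA. A peak was taken as a chromosome-end peak when it lay on chromosomes 1 to 22 and started at or below position 2 Mb or ended within 2 Mb of the GRCh38 chromosome length. This gave 3665 end peaks of 170949 peaks on these chromosomes (2.14%), and of 173240 deposited peaks in all. The 39 chromosome ends that hold annotated genes or peaks span 75.9 Mb of mapped sequence, 2.88% of the mapped length of these chromosomes. Mapped means 100-kb bins with an annotated gene or with a peak of any list. The short-arm ends of the 5 acrocentric chromosomes held no peak and no gene used here, and were left out of the 44 ends.

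The study addressed how EZH2 and JARID2 bind DNA in liver cancer cells and in non-tumour liver cells. Its groups were EZH2, H3K27me3 and JARID2 in THLE-2, an immortalised liver epithelial line that the labels call normal, and JARID2 in HepG2, a liver carcinoma line. Both lines were used without a genetic change or a drug that the labels name. Each group had 2 biological replicates, each with its own input library, so 8 immunoprecipitated (IP) and 8 input libraries make up the 16 samples. The input libraries entered only through the authors' peak calls and have no peak list of their own here. The lists give peaks and no expression, so the identity of the lines could not be checked by marker genes.

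EZH2 is the methyltransferase of Polycomb repressive complex 2, which places H3K27me3 on the chromatin of silenced developmental genes. JARID2 is an accessory subunit that helps the complex to bind CpG-rich DNA. The ends of human chromosomes are rich in genes, in GC bases and in CpG islands, and close to the telomere repeats they carry sequence blocks copied between chromosomes.

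The libraries differ in ways that touch every result on the ends. The IP libraries held 7.95 to 39 M tags, and the lists 2112 to 90524 peaks. HepG2 JARID2 replicate 1, with 7.95 M tags, had 1108 end peaks, while replicate 2, with 14.6 M tags, had 36. Over the end peaks, the median false discovery rate given by the authors was 100% for EZH2, H3K27me3 and HepG2 JARID2 replicate 2. It was 15.8% and 44.1% for THLE-2 JARID2, and 1.09% for HepG2 JARID2 replicate 1.

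To show what the sequence of end genes looks like, the 250 bases upstream of the transcription start are printed for 4 genes, each in the direction of its gene and with CG dinucleotides in capitals. Only genes with a RefSeq promoter entry taken for this choice could be picked. Among these, BRSK2, DEFB132 and RNF130 come first in the rankings of EZH2, H3K27me3 and JARID2 described further on. GCGR was added after its values were seen. Among the same genes, it is the first of the EZH2 ranking whose upstream stretch lay within the peaks of both EZH2 replicates. ONECUT3 and MAFA rank above BRSK2 and GCGR for EZH2 but were not among the genes that could be picked. Their starts also lay within the peaks of both EZH2 replicates. The sequences are from RefSeq, build GRCh38.p14. The stretch of BRSK2 is chr11:1409171-1409420 on the plus strand, of GCGR chr17:81803900-81804149 on the plus strand, of DEFB132 chr20:257474-257723 on the plus strand, and of RNF130 chr5:180071760-180072009 on the minus strand.
BRSK2: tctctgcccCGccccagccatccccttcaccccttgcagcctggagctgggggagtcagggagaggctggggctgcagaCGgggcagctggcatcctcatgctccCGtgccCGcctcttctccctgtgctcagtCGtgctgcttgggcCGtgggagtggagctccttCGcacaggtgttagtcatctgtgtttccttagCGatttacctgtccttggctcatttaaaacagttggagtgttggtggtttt
GCGR: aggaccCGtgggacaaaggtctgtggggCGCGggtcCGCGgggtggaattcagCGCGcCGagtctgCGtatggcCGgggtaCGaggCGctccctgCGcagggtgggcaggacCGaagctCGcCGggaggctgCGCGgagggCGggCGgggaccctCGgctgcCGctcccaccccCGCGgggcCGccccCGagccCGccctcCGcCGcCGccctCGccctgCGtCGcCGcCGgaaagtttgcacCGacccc
DEFB132: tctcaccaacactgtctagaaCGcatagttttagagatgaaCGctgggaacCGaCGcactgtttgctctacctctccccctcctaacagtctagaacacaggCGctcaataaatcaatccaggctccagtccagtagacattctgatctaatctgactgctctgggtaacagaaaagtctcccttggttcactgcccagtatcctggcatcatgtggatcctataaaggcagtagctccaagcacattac
RNF130: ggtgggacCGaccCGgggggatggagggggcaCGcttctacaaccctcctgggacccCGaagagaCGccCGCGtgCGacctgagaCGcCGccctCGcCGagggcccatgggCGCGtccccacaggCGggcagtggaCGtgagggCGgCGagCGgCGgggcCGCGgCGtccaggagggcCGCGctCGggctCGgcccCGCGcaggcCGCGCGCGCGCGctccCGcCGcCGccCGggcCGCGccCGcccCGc

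RNF130 had 43 CG dinucleotides and 82% GC in this stretch, GCGR 36 and 77.6%, BRSK2 8 and 60%, and DEFB132 5 and 48%. The stretch of RNF130 lay within the peak of HepG2 JARID2 replicate 1 and was overlapped in part by the peaks of the other JARID2 libraries. That of DEFB132 lay within the peaks of both H3K27me3 libraries. The BRSK2 entry is a start inside the annotated gene and lay in no EZH2 peak, since the EZH2 peaks covered the outer start of that gene. Promoter entries were matched for 962 of the 1259 protein-coding genes at the ends and for 14138 of 17697 elsewhere. The end promoters held a median of 25 CG dinucleotides and 69.6% GC, against 17 and 62% in the rest. At least 1 CG was found in 96.9% of the upstream stretches of all genes. The motif GGGCGG, searched on both strands and itself holding a CG, was present in 68.1% of end promoters, 55.5% of the others and 56.3% of all. The telomere repeat unit TTAGGG, searched on both strands, was present in 6.34% of end promoters, 7.94% of the others and 7.84% of all. The end promoters were thus richer in CG, and not richer in the telomere unit.

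Peak density at the ends went opposite ways for the histone mark and for its enzyme. H3K27me3 peaks were sparser in the last 2 Mb than in the rest in both replicates, while EZH2 and THLE-2 JARID2 peaks were denser in both. The 2 HepG2 JARID2 libraries disagreed, with replicate 1 having the highest ratio to the rest of the 8 libraries and replicate 2 the lowest.

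EZH2 replicate 1 had 104 end peaks, 1.37 per Mb against 0.752 per Mb in the rest, a ratio of 1.82 (95% exact interval 1.48 to 2.22). EZH2 replicate 2 had 125 end peaks, 1.65 against 1.35 per Mb, a ratio of 1.22 (1.01 to 1.46). Such intervals cover the counting error of peaks only. The THLE-2 JARID2 libraries had 238 and 222 end peaks, 3.13 and 2.92 per Mb, with ratios of 1.58 (1.38 to 1.80) and 1.42 (1.23 to 1.62). Both groups therefore lay above 1 in each replicate.

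H3K27me3 replicate 1 had 517 end peaks, 6.81 against 17.8 per Mb, a ratio of 0.383 (0.350 to 0.418). H3K27me3 replicate 2 had 1315 end peaks, 17.3 against 34.4 per Mb, a ratio of 0.504 (0.477 to 0.532). Both replicates lay below every EZH2 and THLE-2 JARID2 library. HepG2 JARID2 replicate 1 had 14.6 end peaks per Mb against 5.56, a ratio of 2.63 (2.47 to 2.79). HepG2 JARID2 replicate 2 had 0.474 against 1.54, a ratio of 0.308 (0.215 to 0.427). The spread of these 2 libraries was wider than any difference between groups.

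**Figure D1:**
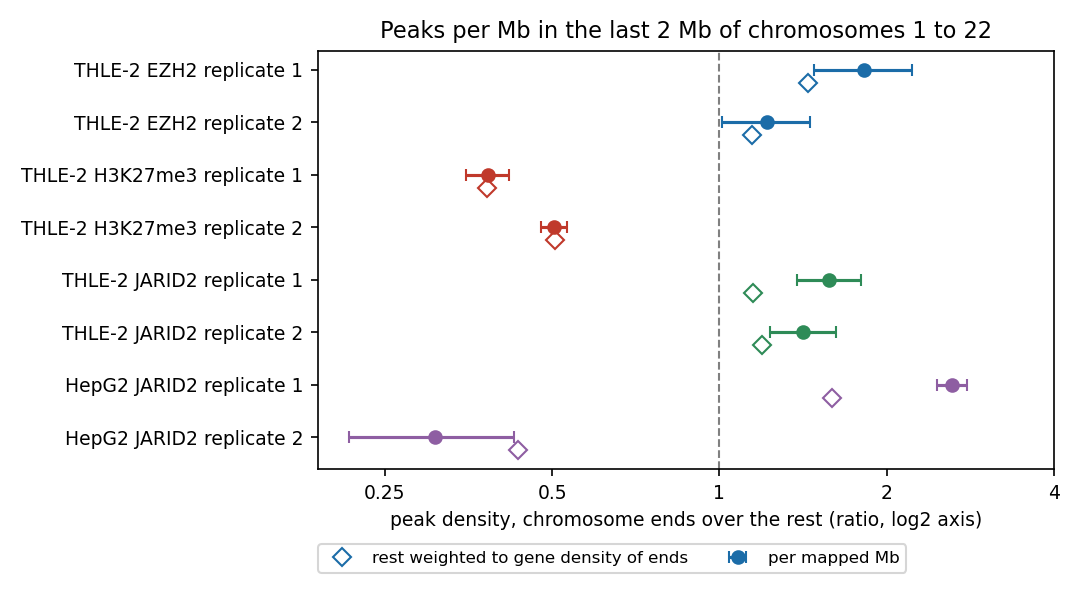
Peak density in the last 2 Mb over the density in the rest of chromosomes 1 to 22, for each library on a log2 axis. Filled circles with 95% counting intervals give the plain ratio, open diamonds the ratio with the rest weighted to the gene density of the ends, and the dashed line marks equal density. Both H3K27me3 libraries and HepG2 JARID2 replicate 2 lie left of the line, the other 5 libraries right of it.

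On the log2 scale, the ratio averaged 0.58 ± 0.41 (SD, n = 2) for EZH2, -1.19 ± 0.28 (SD, n = 2) for H3K27me3, 0.58 ± 0.11 (SD, n = 2) for THLE-2 JARID2 and -0.15 ± 2.19 (SD, n = 2) for HepG2 JARID2. Over all 8 libraries the mean was -0.05, with 5 libraries above 0, and a two-sided exact sign-flip permutation test gave p = 0.898. H3K27me3 was 1.76 log2 units below EZH2 and 1.77 below THLE-2 JARID2, with no overlap of libraries in either case. With 2 libraries against 2, the exact permutation test cannot go below p = 0.333, which is what these 2 differences gave (adjusted p = 1 over 6 pairs). Against the other 6 libraries together, H3K27me3 was lower by 1.52, with exact permutation p = 0.143, where the smallest possible p is 0.0357. Without HepG2 JARID2 replicate 2 this difference was -1.93, with exact permutation p = 0.0476, the smallest that the remaining libraries allow. Of the 6, only that library lay below H3K27me3, so the choice to leave it out fixed this p. Leaving out that library also turned the mean over libraries to 0.19.

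The ends hold 16.6 protein-coding genes per Mb against 6.92 in the rest, 2.40 times as many. Within 1-Mb bins weighted to the same gene density, the ratio fell to 1.44 and 1.14 for EZH2, to 1.15 and 1.19 for THLE-2 JARID2 and to 1.60 for HepG2 JARID2 replicate 1. For H3K27me3 it was 0.382 and 0.505, close to the plain ratio, and for HepG2 JARID2 replicate 2 it was 0.435. The ratio of HepG2 JARID2 replicate 2 thus also lay nearer to 1 after this weighting, and all 8 libraries kept their direction. In bins with 20 to 40 genes per Mb, HepG2 JARID2 replicate 1 had 20.5 peaks per Mb at the ends and 12.7 elsewhere, and H3K27me3 replicate 2 had 14.9 and 34.3.

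Individual peaks at the ends were as wide as or wider than elsewhere. The median EZH2 end peak was 3937 bp in replicate 1 and 3364 bp in replicate 2, against 2990 bp and 936.5 bp in the rest. The median H3K27me3 end peak was 1638 and 1658 bp against 1493 and 1114 bp, and those of JARID2 were 580 to 804 bp against 541 to 603.5 bp. Counted as covered bases, EZH2 peaks took 0.617% and 0.680% of the mapped ends against 0.264% and 0.305% of the rest. H3K27me3 peaks took 1.51% and 5.05% of the ends against 3.52% and 5.75% of the rest. By covered bases the deficit of H3K27me3 replicate 2 was therefore small.

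The authors' fold enrichment, the tags of a peak over its local input background, was not higher at the ends. Its median over end peaks was 7.90 and 5.94 for EZH2, 9.17 and 7.03 for H3K27me3, 8.83 and 8.06 for THLE-2 JARID2, and 8.87 and 9.07 for HepG2 JARID2. In the rest the medians were 8.13 and 6.69, 9.42 and 8.22, 9.06 and 8.31, and 10.4 and 9.63 in the same order. When each list was limited to its top 2027 peaks by fold, the size of the shortest list, HepG2 JARID2 replicate 1 kept 75 end peaks and its log2 density ratio fell from 1.39 to 0.37. That of THLE-2 JARID2 went from 0.66 and 0.50 to 0.43 and 0.063, and that of EZH2 replicate 2, with 48 end peaks left, from 0.29 to -0.29. H3K27me3 stood further below the rest, at -1.81 and -1.50. The excess of these 3 JARID2 libraries was thus smaller among their top peaks.

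The H3K27me3 deficit was limited to about the last 3 Mb. Relative to the density of the rest, H3K27me3 stood at 0.408 and 0.493 in the outermost 1 Mb, at 0.358 and 0.514 in the next, and at 0.518 and 0.643 between 2 and 3 Mb. Between 3 and 4 Mb it had reached 0.920 and 1.00. The HepG2 JARID2 replicate 1 excess faded more slowly, from 2.48 in the outermost 1 Mb and 2.77 in the next to 1.83 between 3 and 4 Mb and 1.11 between 5 and 6 Mb. EZH2 replicate 1 fell from 1.99 to 1.12 over the same distance. EZH2 replicate 2 was at 1.25 in the outermost 1 Mb and at 0.903 between 3 and 4 Mb.

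**Figure D2:**
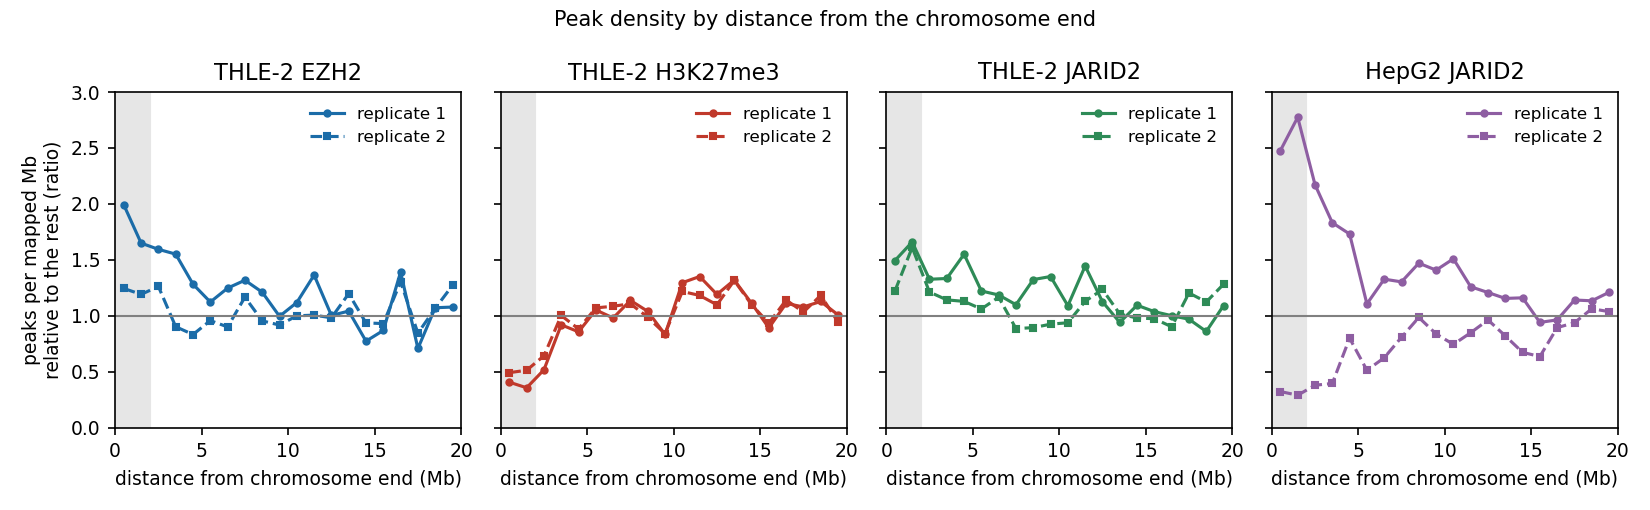
Peaks per mapped Mb relative to the rest (ratio) against distance from the chromosome end in 1-Mb steps, with 1 panel per group and 1 line per replicate. The grey band is the last 2 Mb. The H3K27me3 lines start at 0.408 and 0.493 and reach 0.920 and 1.00 between 3 and 4 Mb, and the HepG2 JARID2 lines lie on opposite sides of 1.

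No EZH2 peak lay within 100 kb of a chromosome end, and the nearest was 113 kb away in both replicates. H3K27me3 had 5 and 27 peaks within 100 kb, THLE-2 JARID2 4 and 5, and HepG2 JARID2 20 and 3. The HepG2 JARID2 peak nearest to an end lay 12.9 kb from it. These 100 kb stretches hold 3.20 Mb of mapped sequence, in which the density of the rest would give 2.41 and 4.32 EZH2 peaks, so the absence of EZH2 rests on few peaks. Relative to the rest, the density there was 0.0878 and 0.245 for H3K27me3, 0.629 and 0.756 for THLE-2 JARID2, and 1.12 and 0.609 for HepG2 JARID2. H3K27me3 was thus sparser in this stretch than over the whole of the last 2 Mb, while HepG2 JARID2 replicate 1 was close to its density in the rest.

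The peaks were spread over the ends in different ways for each target. H3K27me3 peaks were concentrated at 3 short-arm ends, those of chromosomes 20, 18 and 6. The 20p end had 87 and 143 peaks in replicates 1 and 2, 2.45 and 2.08 times the density of the rest. The 18p end had 86 and 129 peaks, 2.69 and 2.08 times that density, and the 6p end had 58 and 114, 1.72 and 1.74 times. Only 4 and 5 of the 39 ends exceeded the rest, and the median end stood at 0.169 and 0.340. The H3K27me3 deficit was thus present at most ends, with a few ends above the rest in both replicates.

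By number of EZH2 peaks, 20q, 16p, 4p, 10q and 19p were among the leading ends in both replicates, and 6p equalled 4p and 10q in replicate 2 with 8 peaks. The 20q end had 12 and 10 EZH2 peaks, 8.16 and 3.78 times the density of the rest, and the 16p end 8 and 9, 5.32 and 3.33 times. EZH2 was above the rest at 25 and 20 of 39 ends, and 9 ends held no EZH2 peak in each list. THLE-2 JARID2 peaks were led by 16q, with 13 and 21, and by 17q, with 12 and 17. HepG2 JARID2 replicate 1 was above the rest at 33 of 39 ends, with 66 peaks at 16p, 64 at 9q, 61 at 20q, 57 at 19p and 55 at 17q. HepG2 JARID2 replicate 2 had no peak at 23 ends and at most 4 at any end, on 1q and 5q. The 16p, 19p, 20q and 16q ends hold 92, 71, 51 and 44 protein-coding genes, the 10q end 29, and the 20p, 18p and 6p ends 36, 10 and 8. Across the 39 ends, the Spearman correlation of peak number with gene number was 0.80 for HepG2 JARID2 replicate 1, 0.52 and 0.62 for THLE-2 JARID2, 0.33 and 0.31 for EZH2, -0.02 and 0.02 for H3K27me3 and -0.19 for HepG2 JARID2 replicate 2. The ends of a library share its depth, so these values describe the libraries.

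**Figure D3:**
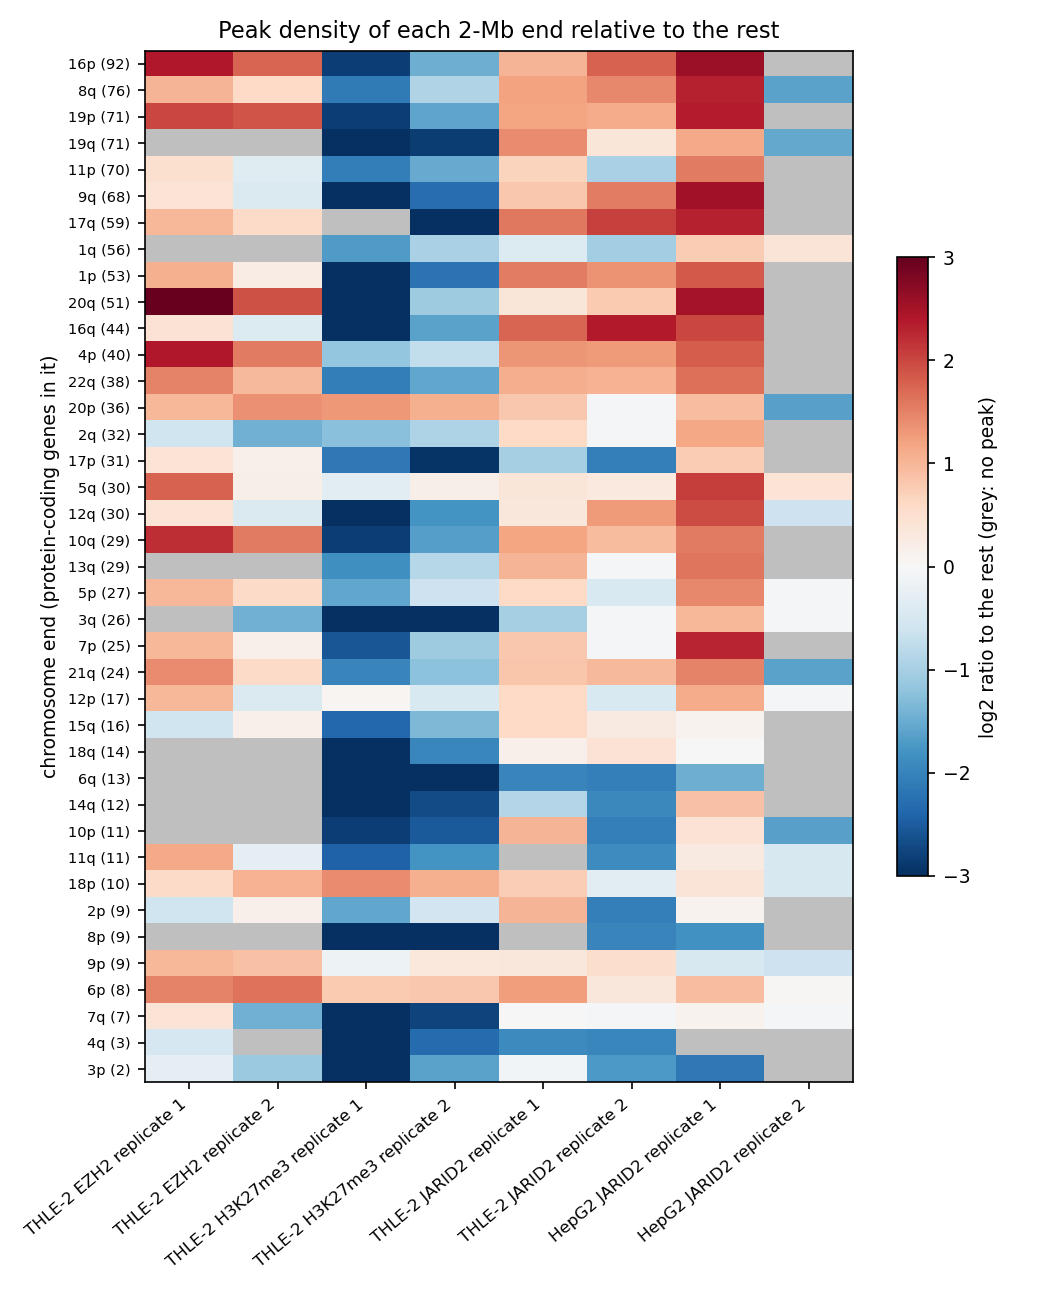
Peak density of each of the 39 chromosome ends (rows, ordered by the number of protein-coding genes given in brackets) relative to the rest, for the 8 libraries (columns), on a log2 colour scale with grey for no peak. Red at 20p, 18p and 6p in both H3K27me3 columns marks the ends above the rest, and HepG2 JARID2 replicate 1 is red at most gene-rich ends.

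End peaks lay near genes more often than other peaks in every list. A peak counted as at a gene end when it lay within 2 kb of either end of a protein-coding gene. This held for 83.7% (Wilson 95% interval 75.4 to 89.5) and 71.2% (62.7 to 78.4) of EZH2 end peaks, against 52.6% and 33.0% in the rest. It held for 31.1% and 41.4% of THLE-2 JARID2 end peaks against 12.5% and 12.4%, and for 41.9% and 16.7% of HepG2 JARID2 end peaks against 26.0% and 3.30%. For H3K27me3 the shares were 8.32% and 17% against 4.59% and 5.81%, and 60.3% and 56.3% of its end peaks lay outside protein-coding genes and their flanks. Genes are more closely packed at the ends, so the share of genes with a peak was compared as well.

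For each library the 1259 protein-coding genes at the ends were set against the 17697 elsewhere. A gene counted as an end gene when any part of it reached the last 2 Mb, and peaks at either of its ends counted. A peak of an end gene can therefore lie outside the last 2 Mb. In EZH2 replicate 1, 93 end genes had a peak (7.39%, Wilson 95% interval 6.07 to 8.96), against 6.04% of all genes tested, and in replicate 2 99 (7.86%, 6.50 to 9.48), against 6.70%. Both EZH2 shares were thus close to the background. In H3K27me3 replicate 1, 35 end genes had a peak (2.78%, 2.01 to 3.84), against 7.97% of all genes, and in replicate 2 207 (16.4%, 14.5 to 18.6), against 19.4%. The mark was found at fewer end genes than at genes overall in both replicates.

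In THLE-2 JARID2 replicate 1, 93 end genes had a peak (7.39%, 6.07 to 8.96), against 4.38% of all genes, and in replicate 2 114 (9.05%, 7.59 to 10.8), against 4.57%. In HepG2 JARID2 replicate 1, 504 end genes had a peak (40.03%, 37.4 to 42.8), against 23.2% of all genes. In HepG2 JARID2 replicate 2, 7 end genes had a peak (0.556%, 0.270 to 1.14), against 0.739%. JARID2 was therefore found at a larger share of end genes in 3 of its 4 libraries.

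The ratio of the share at the ends to that in the rest was 1.24 and 1.19 for EZH2, 0.334 and 0.840 for H3K27me3, 1.77 and 2.13 for THLE-2 JARID2, and 1.82 and 0.740 for HepG2 JARID2. Its mean log2 over the 8 libraries was 0.13, above 0 in 5 of 8, with exact sign-flip permutation p = 0.695. H3K27me3 lay 1.20 log2 units below EZH2 and 1.88 below THLE-2 JARID2, each with exact permutation p = 0.333 (adjusted p = 0.667), the smallest p of the design. Against the other 6 libraries H3K27me3 was lower by 1.403, with exact permutation p = 0.0714. Without HepG2 JARID2 replicate 2 the difference was -1.59, with exact permutation p = 0.0476. Of the 6, only that library lay below an H3K27me3 library, so the choice to leave it out fixed this p. The H3K27me3 values rested on 2 unlike libraries. Without H3K27me3 replicate 1 the difference from the other 6 was -0.74 and without H3K27me3 replicate 2 it was -2.07. EZH2 minus H3K27me3 ranged from 0.53 to 1.87 in the same way.

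**Figure D4:**
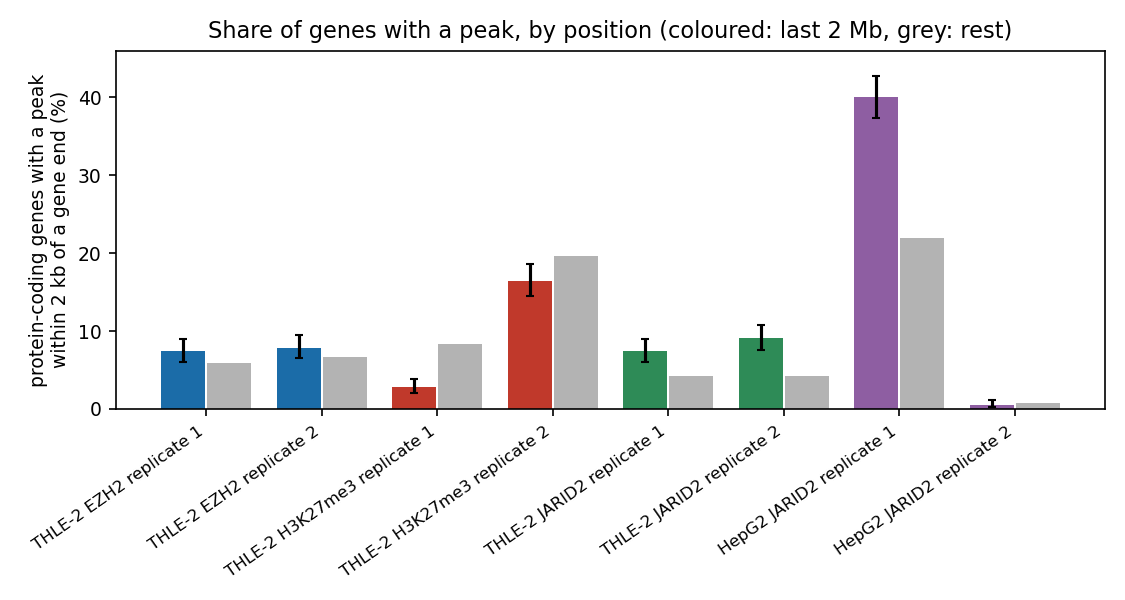
Percent of protein-coding genes with a peak within 2 kb of a gene end, for genes in the last 2 Mb (coloured bars, with Wilson 95% intervals) and in the rest of chromosomes 1 to 22 (grey bars), per library. HepG2 JARID2 replicate 1 has the tallest pair, 40.03% against 22%, and both H3K27me3 libraries have the grey bar higher.

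Promoter CG content moved with the share of end genes that had a peak. Counted at the transcription start alone, 5.72% and 6.55% of end promoters lay within 2 kb of an EZH2 peak, against 4.83% and 5.30% of the others. With the others weighted over 5 classes of CG number to the end promoters, the EZH2 ratio went from 1.18 to 0.99 in replicate 1 and from 1.24 to 1.04 in replicate 2. For THLE-2 JARID2 it went from 1.90 and 1.96 to 1.64 and 1.56, and for HepG2 JARID2 replicate 1 from 1.81 to 1.34. For H3K27me3 it went from 0.293 to 0.415 and from 0.807 to 0.844. With CG number weighted, EZH2 thus stood near 1 and JARID2 stayed above 1 in these 3 libraries.

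In HepG2 JARID2 replicate 1 the share rose with CG number at the ends, from 13.7% of promoters with 0 to 9 CG to 66.7% of those with 40 or more, against 6.14% and 54.6% in the rest. In EZH2 replicate 1 it went from 1.89% to 14.8%, against 2.30% and 11.3%. H3K27me3 replicate 1 had the opposite order, with 3.77% of end promoters with 0 to 9 CG and 0 of 282 with 30 to 39, against 12.2% and 0.112% in the rest. The end promoters with an EZH2 peak held a median of 32 and 29 CG, and those with a peak of H3K27me3 replicate 1 a median of 5.

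**Figure D5:**
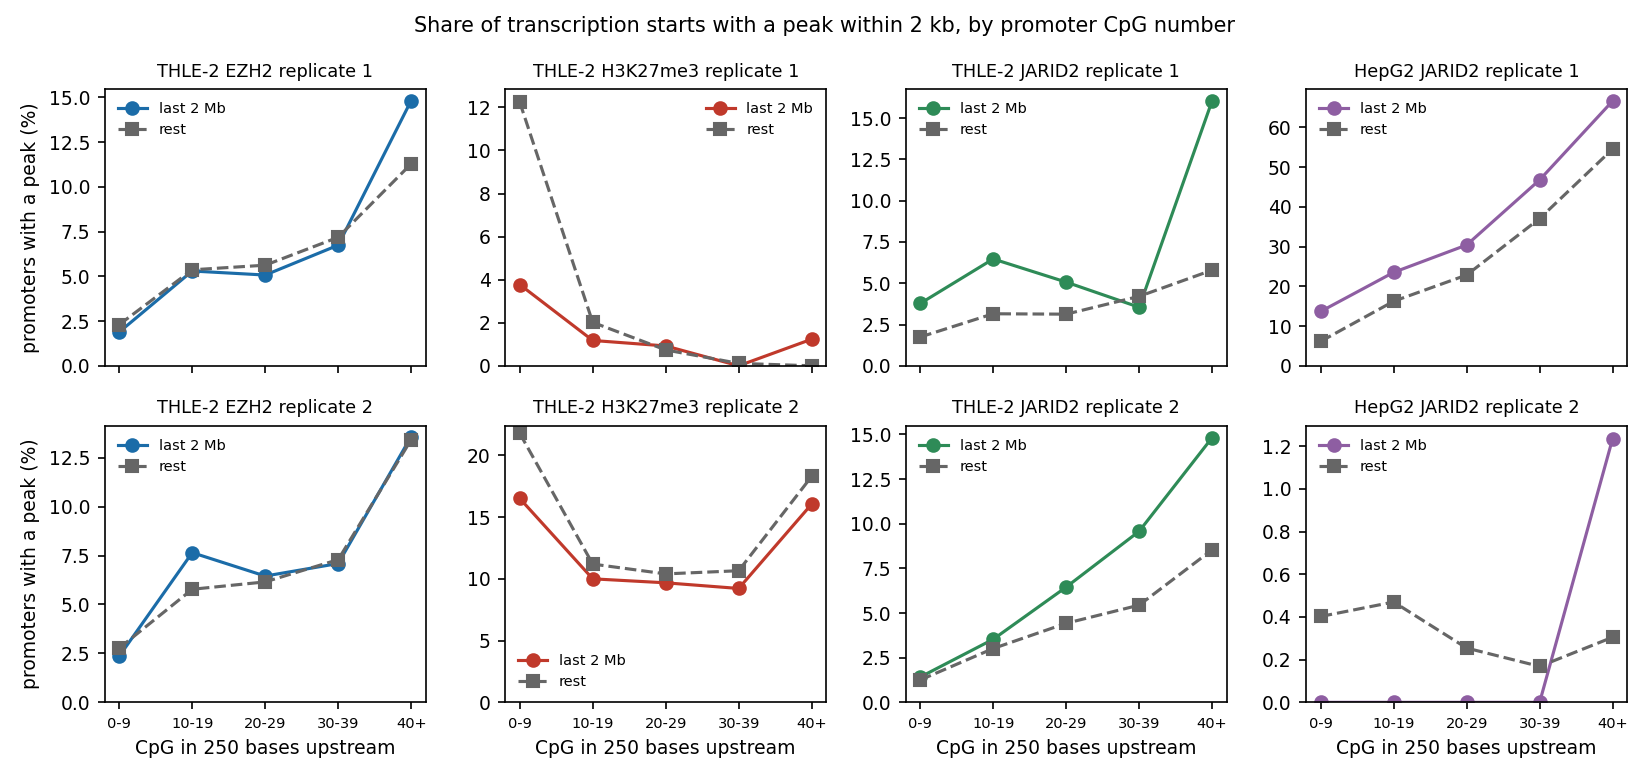
Percent of transcription starts with a peak within 2 kb, by the number of CG dinucleotides in the 250 bases upstream, for genes in the last 2 Mb (coloured circles) and in the rest (grey squares), 1 panel per library with its own vertical scale. The coloured line lies above the grey one throughout for HepG2 JARID2 replicate 1, and close to it for EZH2.

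The peaks of the 2 EZH2 replicates coincided more often at the ends than elsewhere, and those of the JARID2 replicates hardly at all. Of the EZH2 end peaks, 80.8% of replicate 1 (Wilson 95% interval 72.2 to 87.2) and 67.2% of replicate 2 (58.6 to 74.8) overlapped a peak of the other replicate by at least 1 bp, against 61.9% and 35.3% in the rest. EZH2 end peaks were also wider, with medians of 3937 and 3364 bp against 2990 and 936.5 bp. The part of width in these overlaps was not tested. For H3K27me3 the shares were 72.0% and 31.6%, against 72.1% and 40.8%. For THLE-2 JARID2 they were 1.68% and 2.25%, against 1.00% and 0.966%, and for HepG2 JARID2 0.181% and 8.33%, against 0.296% and 1.07%. The JARID2 excess at the ends therefore rested on mostly different peaks in each replicate.

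Peaks of different targets overlapped more often at the ends than elsewhere in some pairs. HepG2 JARID2 replicate 1 peaks also covered 1.41% of the mapped ends, against 0.397% of the rest, and EZH2 end peaks were wider. The part of this in the overlaps was not tested. EZH2 end peaks overlapped a HepG2 JARID2 replicate 1 peak in 59.6% and 55.2% of cases, against 27.8% and 16.2% in the rest. They overlapped a peak of H3K27me3 replicate 2 in 75% and 68.0% of cases, against 65.3% and 48.0%, but a peak of H3K27me3 replicate 1 in 0.962% and 2.40%, against 10.2% and 12.7%. The 2 H3K27me3 lists thus differed at EZH2 sites. THLE-2 JARID2 end peaks overlapped HepG2 JARID2 replicate 1 in 10.9% and 18% of cases, against 4.03% and 4.43%. Within THLE-2 they overlapped EZH2 replicate 2 in 2.94% and 0.450% of cases, against 1.59% and 1.70% in the rest, and EZH2 replicate 1 in 1.26% and 1.35%, against 1.397% and 1.46%.

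Genes with a peak in both replicates were counted next. At the ends 81 genes had an EZH2 peak in both replicates (6.43%), against 5% of all genes, and in 78 of them the strongest peaks overlapped. For H3K27me3 33 end genes did (2.62%), against 6.98% of all genes, 21 of them with overlapping peaks. For THLE-2 JARID2 15 end genes did (1.19%), against 0.375%, and for HepG2 JARID2 3 (0.238%), against 0.164%, with overlapping peaks at 6 and 1 of them. Of the 1259 end genes, 561 (44.6%) had no peak in any library, against 56.4% of the genes elsewhere, and no gene of either set had a peak in 7 or 8 libraries. Between groups, of 111 end genes with an EZH2 peak in either replicate, 88 (79.3%) also had an H3K27me3 peak, which is 42.1% of the 209 H3K27me3 genes. In the rest 79.3% of the EZH2 genes had one. H3K27me3 peaks, also counted in either replicate, stood at 16.6% of all end genes and 20.4% of all genes. Counted separately, 15 of the 111 (13.5%) had a THLE-2 JARID2 peak, against 11.1% in the rest, and 76 (68.5%) a HepG2 JARID2 peak, against 40.2%. The former stands beside THLE-2 JARID2 peaks at 15.3% of all end genes and 8.57% of all genes. The latter stands beside HepG2 JARID2 peaks at 40.3% of all end genes and 23.8% of all genes. With the H3K27me3 replicates pooled, the share of EZH2 genes with H3K27me3 was thus the same at the ends and elsewhere. It rested mostly on replicate 2, which had a peak at 207 end genes, against 35 for replicate 1. By peaks, replicate 1 overlapped a smaller share of EZH2 peaks at the ends than elsewhere, as given above. The share of EZH2 genes with HepG2 JARID2 was higher at the ends, as it was over all end genes.

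The genes named here were ranked in each group by the worse of their 2 ranks of the authors' fold enrichment, among end genes with a peak in both replicates. ONECUT3, a cut-homeobox transcription factor gene at chr19:1753506-1780988, had EZH2 peaks of 15.14-fold and 13.54-fold and no peak of another target. The EZH2 peaks spanned its start, from position 1747776 to 1759454 in replicate 1 and from 1747863 to 1760935 in replicate 2. MAFA, an insulin gene activator of pancreatic beta cells on 8q, had 13.09-fold and 10.56-fold EZH2 peaks, a 6.99-fold peak of H3K27me3 replicate 2 and a 12.31-fold peak of HepG2 JARID2 replicate 1.

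BRSK2, which encodes a kinase of neuronal polarity at chr11:1389934-1462689, had 12.89-fold and 9.14-fold EZH2 peaks. GCGR, the glucagon receptor gene at chr17:81804150-81814008, had 12.32-fold and 9.38-fold EZH2 peaks over the CG-rich stretch printed above. BRSK2 and GCGR also had a HepG2 JARID2 replicate 1 peak, of 12.05-fold and 8.53-fold. DMRT1, a transcription factor gene of the testis on 9p, had 12.09-fold and 11-fold EZH2 peaks, which lay at opposite ends of the gene in the 2 replicates. The homeobox gene NKX1-1, the Nogo receptor relative RTN4RL1, PRR35 and the GTPase regulator ABR were also among the first 10, with EZH2 folds of 11.85 to 13.17 in replicate 1 and 8.14 to 11.90 in replicate 2. The RTN4RL1 gene reaches the 17p window, but its EZH2 peaks started beyond it, at positions 2021906 and 2022171. None of the EZH2 genes named had a peak of H3K27me3 replicate 1. MAFA, BRSK2, GCGR, DMRT1, NKX1-1, PRR35 and ABR had one of replicate 2.

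The first 10 genes of the H3K27me3 ranking lie on 6 chromosome ends, 4 of the genes on 20p. The alpha-globin genes HBA1 and HBA2 on 16p shared a single peak between them, of 13.45-fold and 13.55-fold in the 2 replicates. The 2 genes are near-identical copies, so reads of this place may be split or dropped between them. DEFB132, a beta-defensin gene at chr20:257724-261096, had H3K27me3 peaks of 13.37-fold and 11.27-fold, over the CG-poor stretch printed above. IRF4, a lymphocyte transcription factor gene on 6p, had 13.04-fold and 10.53-fold H3K27me3 peaks at 1 end of the gene and EZH2 peaks of 9.83-fold and 5.87-fold. The IRF4 peak of EZH2 replicate 1 lay beyond that same end, from position 412198 to 413142, and that of replicate 2 over the other end, from 388844 to 395186.

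SIRPG, a lymphocyte surface receptor gene, C20orf202 and PDYN, which encodes opioid peptides, lie on 20p. They had H3K27me3 folds of 11.10 to 12.07 in replicate 1 and 9.85 to 10.69 in replicate 2. SLC6A13, a GABA transporter gene on 12p, had 13.04-fold and 9.69-fold H3K27me3 peaks. CFAP97D2 on 13q and LOC105375947 on 9p completed the 10 genes. At SIRPG, PDYN and CFAP97D2 the H3K27me3 peaks of the 2 replicates did not overlap. Apart from IRF4, none of the 10 had an EZH2 peak.

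THLE-2 JARID2 was led by RNF130, which encodes a RING finger ubiquitin ligase. At its CG-rich start on 5q, JARID2 peaks reached 17.72-fold and 23.97-fold in THLE-2 and 62.87-fold and 9.35-fold in HepG2. These rested on 37, 44, 147 and 63 tags. RNF130 had no EZH2 and no H3K27me3 peak. The other THLE-2 JARID2 genes were MOV10L1, a helicase of the piRNA pathway, ZNF598, a sensor of stalled ribosomes, NSD2, a histone H3 lysine 36 methyltransferase, LOC124903566, PIEZO1, a mechanically gated channel, CIMAP1B, TYMP, the thymidine phosphorylase gene, CBFA2T3, a corepressor, and PDE6G, a subunit of the rod phosphodiesterase. Their folds were 4.34 to 10.38 in replicate 1 and 7.35 to 10.26 in replicate 2, on 11 to 46 tags. The ZNF598 gene reaches the 16p window, but its peaks started beyond it, at positions 2009614 and 2009177. CIMAP1B and TYMP are neighbours that shared their peaks. The MOV10L1, CBFA2T3 and PDE6G peaks of the 2 replicates lay near the same end of the gene without overlap. Those of NSD2, LOC124903566 and PIEZO1 lay at opposite ends of the genes.

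In HepG2, RNF130, PEG3 and ZIM2 were the end genes with a JARID2 peak in both replicates. PEG3 and ZIM2 are imprinted zinc finger genes that share a start on 19q, at position 56840726. The HepG2 JARID2 peaks there were 10.24-fold on 9 tags, from position 56840254 to 56840783, and 13.61-fold on 12 tags, from 56841183 to 56841504. The replicate 1 peak covered the start of PEG3 and ZIM2, the replicate 2 peak lay upstream of it, and they did not overlap.

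LOC124903566, an uncharacterised gene on 15q, had a peak in 6 libraries, the most of any end gene. It overlaps PCSK6, a proprotein convertase gene with a peak in 5 libraries, and the EZH2 peaks of both genes were the same, at 6.61-fold and 4.89-fold. The other genes with 5 libraries were BHLHE23, FOXQ1, PCBP3, TSPEAR, PANX2 and SPATC1. BHLHE23, a basic helix-loop-helix factor of neurons at the 20q end, had 10.85-fold and 10.08-fold EZH2 peaks, a 4.50-fold peak of H3K27me3 replicate 2, a 7.33-fold peak of THLE-2 JARID2 replicate 2 and a 14.94-fold peak of HepG2 JARID2 replicate 1. FOXQ1, a forkhead factor gene on 6p, had 5.06-fold and 4.78-fold EZH2 peaks, a 4.10-fold peak of H3K27me3 replicate 2, a 4.08-fold peak of THLE-2 JARID2 replicate 1 and an 8.32-fold peak of HepG2 JARID2 replicate 1. These genes had EZH2, H3K27me3 replicate 2 and HepG2 JARID2 replicate 1 in common, though not always at the same place. At TSPEAR the HepG2 JARID2 replicate 1 peak lay at the opposite end of the gene from the EZH2 peaks. At SPATC1 the H3K27me3 replicate 2 peak lay at the opposite end from the EZH2 peaks.

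Lists of gene families were counted at the ends beside their other members. Of 288 developmental transcription factor genes, 22 lie at the ends, and 11 of these (50%) had an EZH2 peak in both replicates, against 56.0% of the 266 elsewhere and 5% of all genes. The 11 were NKX6-2, UTF1, VENTX, SOX8, ONECUT3, GATA5, SOX18, NKX1-1, IRX4, FOXQ1 and FOXL3. H3K27me3 replicate 1 had a peak at none of the 22, against 11.7% of the others and 7.97% of all genes. Replicate 2 had one at 11 (50%), against 64.7% of the others and 19.4% of all genes. HepG2 JARID2 replicate 1 had a peak at 14 (63.6%), against 41.4% of the others, 40.03% of all end genes and 23.2% of all genes. GATA5, a factor of heart and gut development, had 10.84-fold and 9.14-fold EZH2 peaks, and IRX4, a factor of the heart ventricle, 13.50-fold and 7.6-fold. Only the 2 members FOXQ1 and FOXF2 had a THLE-2 JARID2 peak, in replicate 1 (9.09%, against 5.26% of the others, 7.39% of all end genes and 4.38% of all genes).

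Of 20 ion channel and neurotransmitter receptor genes at the ends, 4 had an EZH2 peak in both replicates, among them P2RX2, CACNA1H and HCN2. This was 20%, against 23.6% of the 250 others and 5% of all genes. SLC6A13 and the calcium channel gene CACNA1C had H3K27me3 in both replicates, with 7.24-fold and 7.97-fold peaks at CACNA1C. These were 10% of the 20, against 22.4% of the others, 2.62% of all end genes and 6.98% of all genes. HepG2 JARID2 replicate 1 had a peak at 10 of the 20 (50%), against 28.4% of the others, 40.03% of all end genes and 23.2% of all genes, with 18.51-fold at CACNA1H and 15.53-fold at HCN2. Of 7 growth factor and Notch ligand genes, EFNA2, an ephrin ligand, had EZH2 peaks in both replicates, of 7.09-fold and 6.17-fold, and WNT5B had H3K27me3 in both, of 7.28-fold and 9.40-fold. For EZH2 this was 14.3%, against 22.2% of the 90 others and 5% of all genes. For H3K27me3 it was 14.3%, against 11.1% of the others and 6.98% of all genes.

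The alpha-globin cluster at the 16p end held EZH2 and H3K27me3. Of its 5 listed genes, HBM had EZH2 peaks of 6.57-fold and 4.75-fold, HBA1 and HBA2 the H3K27me3 peaks given above, and HBZ no peak in any library. In both replicates EZH2 was at 20% of the 5 and H3K27me3, through the 1 shared peak, at 40%. The 5 haemoglobin genes elsewhere had 0% for each, and all genes 5% and 6.98%. HBM also had a 5.32-fold peak of H3K27me3 replicate 2 and a 12.08-fold peak of HepG2 JARID2 replicate 1. HBQ1 had a 5.87-fold peak of H3K27me3 replicate 2, a 6.12-fold peak of THLE-2 JARID2 replicate 2 and a 5.28-fold peak of HepG2 JARID2 replicate 1. Of 11 interferon-induced and TNF receptor genes, only IRF4 had a peak in both replicates of a group. For EZH2 and for H3K27me3 this was 9.09%, against 3.45% of the 29 others. Of all genes, 5% had EZH2 and 6.98% had H3K27me3 in both replicates.

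Zinc finger genes, of which 85 lie at the ends, many of them on 19q, had no EZH2 peak in either replicate. EZH2 peaks were also rare at the other 433, at 0.924% and 1.62%, against 6.04% and 6.70% of all genes. ZNF543 and ZSCAN4 on 19q had H3K27me3 in both replicates, of 7.58-fold and 10.41-fold at ZNF543 and of 7.72-fold and 10.16-fold at ZSCAN4, a gene of early embryos. These were 2.35% of the 85, against 1.85% of the other 433, 2.62% of all end genes and 6.98% of all genes. ZNF598 had THLE-2 JARID2 in both replicates (1.18%, against 0.462% of the others, 1.19% of all end genes and 0.375% of all genes). HepG2 JARID2 replicate 1 had a peak at 22 of the 85 (25.9%), against 16.2% of the other 433, 40.03% of all end genes and 23.2% of all genes. Of 54 olfactory receptor genes, none had an EZH2 peak (against 0.602% and 0.904% of the 332 others). OR2B11, OR2V1 and OR2V2 had H3K27me3 in both replicates (5.56%, against 14.2% of the others, 2.62% of all end genes and 6.98% of all genes).

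Of 5 mucin genes, MUC5AC and MUC8 had a peak, in H3K27me3 replicate 2 (40%, against 30.8% of the 13 others and 19.4% of all genes). The 17 genes of families copied between chromosome ends had no peak in any of the 8 libraries, as did 44.6% of all end genes. Copies of this kind are near-identical, so their reads may be split or dropped.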

How the data were processed

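ChIP-seq peaks were analysed in 8 IP libraries of THLE-2 and HepG2, 2 biological replicates a group. Trimming with cutadapt, alignment to GRCh38 with Bowtie2 and peak calling with MACS 1.4.2 are the steps named in the submitters' processing notes. Per the file headers, MACS called peaks for each IP library against its own input, at a p cutoff of 1e-05, on 7.95 to 39 M filtered tags. For every peak the deposited lists hold a count of tags, a score made from the log10 of its p-value (not used here), a fold enrichment (a ratio over local background) and a false discovery rate in percent, per the file headers. All fold enrichments printed are those of the authors, and rank peaks within a list only.

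Peaks were split by the 2-Mb rule and set against mapped length and RefSeq genes (GRCh38.p14) with Python 3.11.15, pandas 2.3.3 and SciPy 1.17.1, and the density step was tested on simulated data. From the gene table, 1718 genes (166 protein-coding) were left out as likely listed with positions of other scaffolds. Of the protein-coding ones, 145 lay in the end windows. The genes left out started at or below 6 Mb and had no promoter entry. In addition they were non-coding, had a LOC symbol, lay on an acrocentric chromosome or were on a hand-made list. Genes truly placed there may be among them. Ratio intervals are exact at 95%, and libraries were compared by exact permutation. Named genes were the first 10 a group, ranked by the worse of the 2 fold ranks among genes that in both replicates had a peak no more than 2 kb from either gene end, the 10 genes with peaks in the most libraries, the 5 ends with the most peaks a library, and members of 10 gene lists. Some genes and 1 list taken by these rules are not reported here. The members, lists and rules were chosen with earlier results of these data known. Alternatives were window depth, mapped length, peak subsets, merging, covered bases, gene density, gene windows, promoter CG, chromosomes and libraries left out.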

Additional observations from a re-analysis of the deposited data

Results flagged for a closer look

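In 4 comparisons every library of one group lay above 0 and every library of the other below. For peak density at chromosome ends over the rest, EZH2 minus H3K27me3 was 1.76 and H3K27me3 minus THLE-2 JARID2 was -1.77 on the log2 scale. For the share of protein-coding genes with a peak, EZH2 minus H3K27me3 was 1.20 and H3K27me3 minus THLE-2 JARID2 was -1.88. The exact permutation test of each difference gave p = 0.333, the smallest that 2 libraries against 2 allow, so these differences could not reach the threshold of 0.05. The libraries also differed in depth and peak number, and the part of this was not tested.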

How the results depend on the processing

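The direction of every library's density ratio was kept with each chromosome left out in turn, and the log2 ranges then were 0.72 to 0.91 and 0.15 to 0.33 for EZH2, -1.58 to -1.31 and -1.10 to -0.93 for H3K27me3, 0.62 to 0.70 and 0.34 to 0.55 for THLE-2 JARID2, and 1.33 to 1.43 and -1.82 to -1.63 for HepG2 JARID2. With equal numbers of top peaks, EZH2 replicate 2 turned to -0.29 in density and HepG2 JARID2 replicate 2 to 0.032 in gene share. Over the gene body, EZH2 replicate 2 turned to -0.12 and THLE-2 JARID2 replicate 1 to -0.0021 in gene share. EZH2 replicate 1 turned to -0.015 when weighted by promoter CG.

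The mean density ratio over libraries, -0.05, turned to 0.065 for the last 5 Mb, 0.027 with peaks under 10 kb apart merged and 0.32 for covered bases. At a false discovery rate of at most 5% no mean was made: H3K27me3 and HepG2 JARID2 replicate 2 had 0 peaks, and EZH2 and THLE-2 JARID2 kept 5, 11, 4 and 11 peaks, with 1, 1, 1 and 4 at the ends. The mean gene share ratio, 0.13, turned to -0.44 over the gene body, -0.063 at the transcription start and -0.15 weighted by promoter CG. With equal top peaks no mean was made, since the H3K27me3 libraries then had no end gene with a peak.

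EZH2 and THLE-2 JARID2 differed in density by -0.0042, a value near 0 whose sign turned with most choices. It was 0.23 for the last 1 Mb, 0.040 with equal top peaks, 0.14 with merged peaks, 0.43 for covered bases, 0.14 weighted to gene density and 0.026 without acrocentric chromosomes. With 1 chromosome left out it was 0.037 (1), 0.012 (2), 0.00063 (6), 0.0016 (7), 0.021 (8), 0.0087 (9), 0.0045 (12), 0.021 (13), 0.012 (14), 0.0019 (15), 0.048 (16), 0.031 (17) and 0.0077 (18). Over the gene body the gene share difference of this pair turned to 0.0036.

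Leaving out each library in turn, the mean density ratio ranged from -0.25 to 0.19 and the mean gene share ratio from -0.0025 to 0.38. The density differences ranged from -0.29 to 0.29 for EZH2 minus THLE-2 JARID2, from -0.82 to 2.27 for EZH2 minus HepG2 JARID2, from -2.58 to 0.51 for H3K27me3 minus HepG2 JARID2, from -0.81 to 2.28 for THLE-2 JARID2 minus HepG2 JARID2, and from -1.93 to -1.31 for H3K27me3 minus the other libraries. The gene share differences ranged from -0.58 to 0.72 for EZH2 minus HepG2 JARID2 and from -2.07 to -0.74 for H3K27me3 minus the other libraries. Leaving out HepG2 JARID2 replicate 2 turned EZH2 minus HepG2 JARID2 in both measures and THLE-2 JARID2 minus HepG2 JARID2 in density, and leaving out replicate 1 turned H3K27me3 minus HepG2 JARID2 in density.

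The replicates of different groups share only a number. With the replicate number as a block, EZH2 minus H3K27me3 in density was still 1.76, with exact permutation p = 0.5, the smallest this block allows, and no call changed.

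The share of end peaks found in the other replicate fell to 28.8% for H3K27me3 replicate 2 when at least 50% of the shorter peak had to overlap. With equal top peaks it was 31.7% for EZH2 replicate 1, 17.6% and 23.8% for H3K27me3, and 0% for both HepG2 JARID2 libraries, where fewer peaks can meet by construction. The transcription start, promoter CG and annotation choices were added after seeing the data. Only 7 and 36 items stand behind the gene share and density of HepG2 JARID2 replicate 2.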
